A study of Arabidopsis thaliana with 12 samples.

Results

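The genes described here are the *TERMINAL FLOWER1* (*TFL1*) and *FLOWERING LOCUS T* (*FT*) family of *Arabidopsis thaliana* together with *FD* and its paralog *FDP*. They were chosen as a gene family, by gene identifier and with no threshold on expression, and make up 8 of the 37336 genes in the count files. The family members are *TFL1* (AT5G03840), *ARABIDOPSIS THALIANA CENTRORADIALIS* (*ATC*, AT2G27550), *BROTHER OF FT AND TFL1* (*BFT*, AT5G62040), *FT* (AT1G65480), *TWIN SISTER OF FT* (*TSF*, AT4G20370) and *MOTHER OF FT AND TFL1* (*MFT*, AT1G18100). *FD* is AT4G35900 and *FDP* is AT2G17770.

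RNA was sequenced from root explants of plants that carry 35S:LFY-GR, in which the floral regulator LEAFY (LFY) is fused to the steroid binding part of a glucocorticoid receptor. Without the steroid dexamethasone the fusion protein stays in the cytoplasm, and with it the protein enters the nucleus. Roots of 3-week-old seedlings of the Landsberg *erecta* (Ler) accession were kept on callus inducing medium (CIM) for 5 days, and dexamethasone (Dex) or mock solution (Mock) was applied for the last 1, 6, or 24 h. The 6 groups of Dex and Mock at 1, 6, and 24 h held 2 biological replicates each (A and B), 12 libraries in all. The Mock explants carry the same transgene in the same, otherwise wild-type, background, so the groups differ in the steroid and not in genotype. The viral 35S promoter drives the fusion broadly and not in the pattern of endogenous *LFY*, and explants without the transgene were not among the samples, so an effect of the steroid itself cannot be told apart from that of LFY-GR. Incubation and harvest were common to all explants, and what differs between time points is how long before harvest the solution was added.

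The family encodes small proteins related to phosphatidylethanolamine binding proteins (PEBP). FT and TSF, made in leaf phloem companion cells, move to the shoot apex and promote flowering (florigens). TFL1, ATC and BFT act against them and keep shoot meristems indeterminate (antiflorigens). None of these proteins binds DNA by itself. They associate with the bZIP transcription factor FD, or with FDP, through 14-3-3 proteins, and at the shoot apex the FT and FD complex activates floral meristem genes such as *APETALA1* (*AP1*), while TFL1 competes with FT for FD. MFT, the most diverged of the family, is known mainly for its role in seed germination. LFY is the regulator that confers flower fate on new primordia, and its binding core is CCANTGG, in which N is any base.

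Because the steroid controls LFY-GR, the reference sequence around the 8 genes was searched for that core, from 3000 bases before each annotated gene to 3000 bases after it. The core reads the same on both strands, so each match was counted once, and no other motif was searched. The windows are drawn from the Columbia reference (TAIR10.1, NCBI RefSeq) while the plants are Ler. In each window printed, the core is in capitals and flanked by 10 bases on either side, 5′ to 3′ on the strand of the gene, and distances run from the annotated start or end of the gene to the middle of the core. *FDP*, one of the genes that rose in Dex at 24 h, had 3 matches before its start, at 2244, 1116 and 1054 bases and all between genes, and *FD* had 1 match, 72 bases past its end. These are shown because both genes passed the test at 24 h and the matches lie outside any gene.
FDP, chr2:7720568-7720594, plus strand: agaaggaaaaCCATTGGaatcttaata
FDP, chr2:7721696-7721722, plus strand: ttagaagtgaCCATTGGagcacaatgc
FDP, chr2:7721758-7721784, plus strand: atagaggtaaCCATTGGaaatggtcta
FD, chr4:17006521-17006547, plus strand: aacctccaagCCAATGGgaattaagtt
At least 1 match was present in the 3000 bases before the start of 35.4% of 27440 annotated genes, and at least 3 matches, as at *FDP*, in 1.72%. In the 3000 bases after the end, 37.8% of 27434 genes had at least 1 match. *TFL1*, *ATC*, *FT*, *TSF*, *MFT* and *FD* had 0 matches before the start, so genes that rose in Dex and genes that fell at 24 h lacked these letters in this window. *BFT* had 1 there, in the coding sequence of the neighbouring gene AT5G62030, and past the end *TSF* had 2 matches and *ATC* and *MFT* 1 each.

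Within the annotated genes, 5 of the 6 PEBP genes held the core in their own coding sequence, and *ATC*, *FD* and *FDP* held none. The share of all genes with a match inside the gene was not determined, and genes of a family are not independent cases. The windows are shown because some of them lie in related stretches of the family.
TFL1, chr5:1025659-1025685, minus strand: aagcaagtctCCAATGGccatgagctc
BFT, chr5:24922912-24922938, plus strand: acaatcgtatCCAATGGtcacgagctc
FT, chr1:24332572-24332598, plus strand: gagaatatctCCATTGGtttgtgcact
TSF, chr4:11002047-11002073, minus strand: gagaatatctCCACTGGtttgtatcat
MFT, chr1:6229281-6229307, minus strand: gagaatgggtCCACTGGtgcgtaccaa
The windows of *FT* and *TSF* were identical at 22 of 27 bases, those of *TSF* and *MFT* at 20, and those of *FT* and *MFT* at 17. The windows of *TFL1* and *BFT* were identical at 19 of 27 bases, whereas those of *TFL1* and *FT* shared 12. Since every window was picked for its core, the core letters other than N match in each pair and raise all of these counts. *TSF* and *MFT* each had 1 further match in the coding sequence. A match describes the letters of the reference only, and binding of LFY was not measured in these files.

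**Figure D1:**
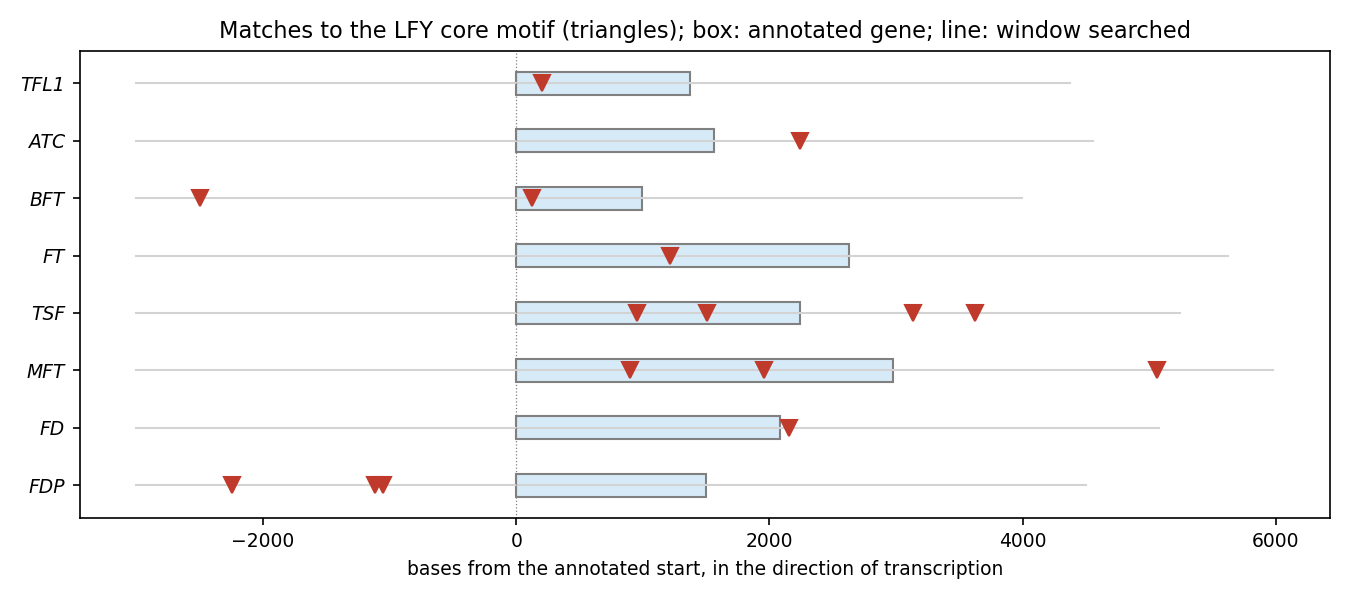
Matches to the LFY core (triangles) around the 8 genes, with the annotated gene as a box and the searched window as a line. The horizontal axis gives bases from the annotated start in the direction of transcription. *FDP* has 3 matches before its start, and the matches of *TFL1*, *BFT* and *FT* inside the box lie in coding sequence.

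Reads counted on genes numbered between 18511462 and 66789371 per library, and the 4 libraries at 24 h were the shallowest, with at most 25879110. Reads on *LFY*, which include those of the transgene, numbered between 11795 and 25950 in every library, Mock included. The tissue is labelled callus, and all 8 markers of callus and root stem cells had at least 271 reads in each of the 12 libraries. Of markers of other tissues, *PI* (flower organs), *RBCS1A* and *LHCB1.3* (green leaf), and *SUC2* and *APL* (phloem) also had reads in all 12, with at least 99 in each, and *AG* had 1 to 17. The 3 shoot meristem and 3 seed markers had at most 32 and 2 reads in any library. Levels are given as counts-per-million (CPM) after TMM normalization, and levels of different genes are compared per kb of annotated exon. A gene was called where edgeR's quasi-likelihood test gave an adjusted *p* under 0.01, with Benjamini-Hochberg adjustment over all genes tested. With replicates n = 2 per group, SD and *p* rest on a pair of explant samples.

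Per kb of exon, the 8 genes had very different levels. *MFT* was the most abundant in every library, with a median of 71.3 CPM per kb over the 12 libraries and a range of 28.3 to 171.2. These levels divide the reads by all annotated exon bases, of which 42.1% in *MFT* and 50.5% in *BFT* are shared with an antisense gene. Reads that overlap more than 1 gene were not counted, so levels per kb of these genes may be understated. *FD* had a median of 6.02 CPM per kb, *ATC* 4.65 and *FDP* 1.74, and the ranges of these 3 genes overlapped. *FT* and *TSF* had medians of 0.190 and 0.130 CPM per kb with overlapping ranges, so their order is not resolved. *TFL1* had a median of 0.0333 CPM per kb with a range of 0 to 16.9, and *BFT* had a median of 0. In Dex at 24 h the order differed, with *MFT* at 29.8 ± 2.12 CPM per kb, *TFL1* at 15.2 ± 2.49, *FD* at 9.67 ± 0.917, *FDP* at 6.42 ± 0.186 and *ATC* at 3.26 ± 0.211 (SD, n = 2 each), and the libraries of neighbouring genes in this order did not overlap.

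**Figure D2:**
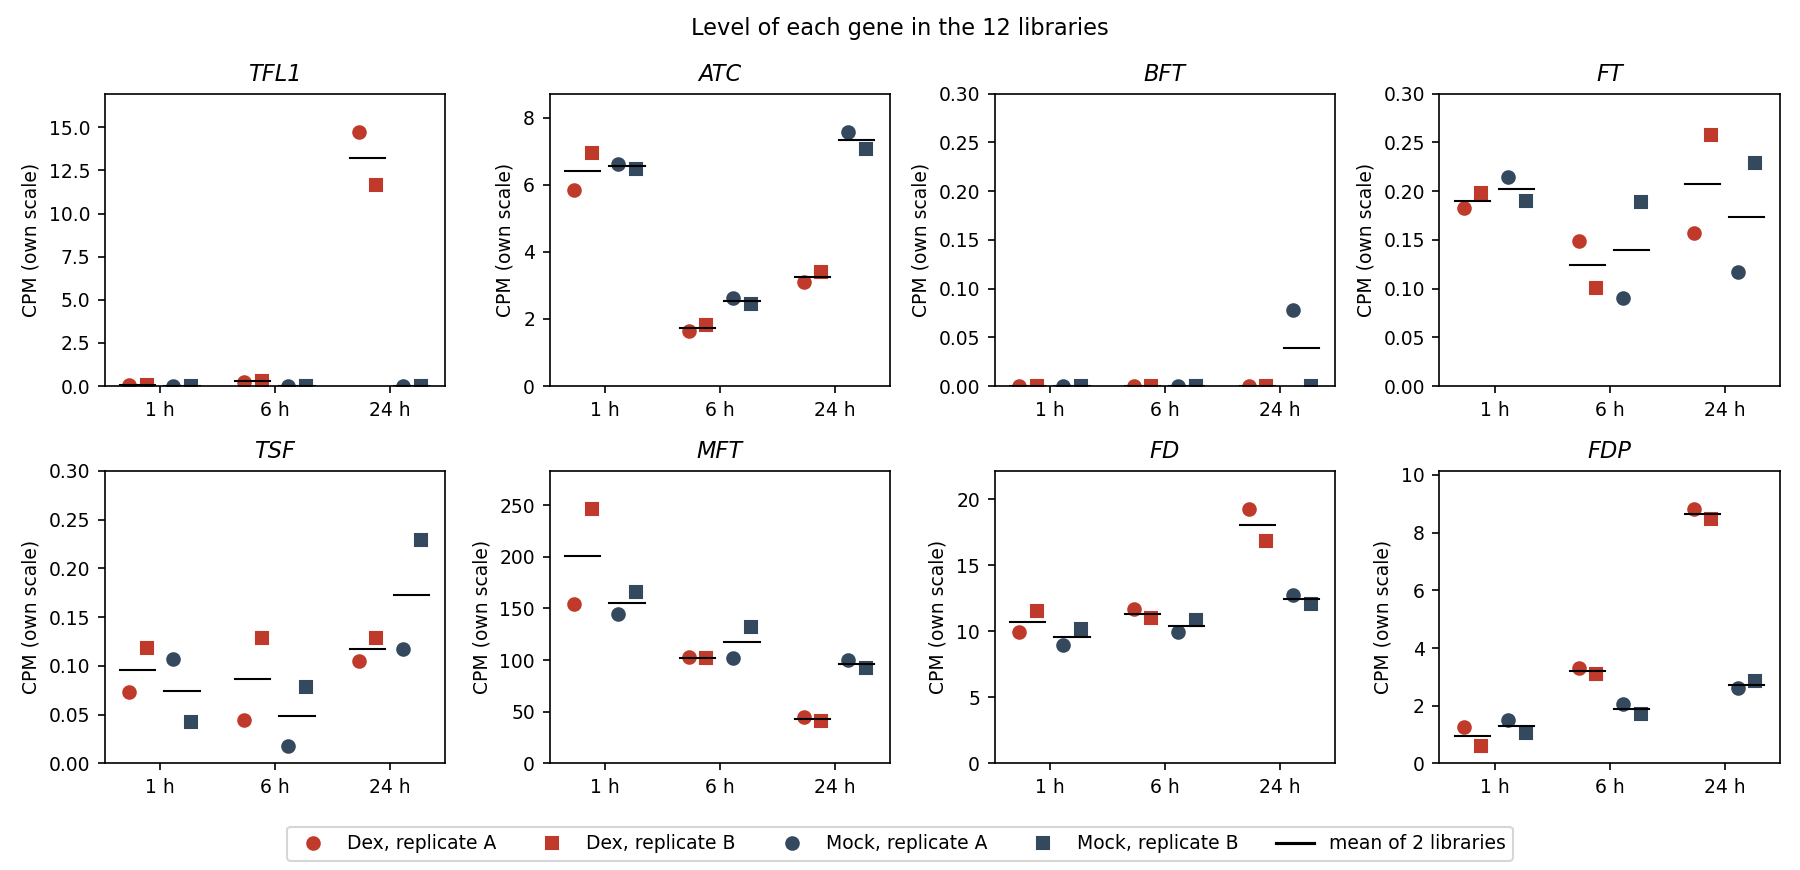
Level of each gene (CPM, each panel on its own scale) in the 12 libraries, by time and treatment, with a point for each library and a line at the mean of 2. *TFL1* is near 0 except in Dex at 24 h, *ATC* and *MFT* lie below and *FDP* and *FD* above Mock in both Dex libraries at 24 h, and *FT*, *TSF* and *BFT* stay at or below 0.3 CPM.

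Members of the family passed the test of Dex against Mock at 24 h and at neither 1 nor 6 h. These fits differed in sensitivity. The common coefficient of variation between replicates fell from 0.141 in the 1 h fit to 0.0964 in the 6 h fit and 0.0611 in the 24 h fit. *FDP* at 6 h (log2 fold change 0.76, SE 0.17) was not called, while *FD* at 24 h (0.54, SE 0.13) was. The lack of calls at the earlier times therefore does not date the onset of a response. At 1 h, 4 of the 8 genes passed the filter on low counts and were tested, and 0 were called by edgeR or DESeq2, beside 0% of all genes in edgeR and 0.218% in DESeq2. None of the 4 had an unadjusted *p* under 0.05 in edgeR. With the replicate letter (A or B) as a block in the edgeR fit, 0 of the 4 were called, beside 2.02% of all genes. At 6 h, 6 were tested and 0 were called by edgeR, beside 0.00480% of all genes. In edgeR 3 of them (*TFL1*, *FDP* and *ATC*) had an unadjusted *p* under 0.05. *TFL1* passed the filter at 6 h only through its Dex libraries, so its *p* is no support. DESeq2 also called 0, beside 0.951% of all genes. At 24 h, 5 were tested. *TFL1* passed the filter only through its Dex libraries and so had to differ, and its call is no support. The other 4 were each called, with *FDP* and *FD* higher in Dex and *ATC* and *MFT* lower. In the same comparison 15.5% of 19288 genes were called, 6.77% higher and 8.76% lower. DESeq2 called *FDP*, *ATC* and *MFT* but not *FD*, beside 10.1% of all genes. *FT*, *TSF* and *BFT*, with 0 to 6 reads in the libraries at 24 h, were not tested.

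*TFL1* (chromosome 5, bases 1024500 to 1025872 on the minus strand, 4 exons) keeps the shoot apex from turning into a flower. It had 2 and 4 reads in the Dex libraries A and B at 1 h, against 1 and 0 in Mock. At 6 h it had 15 and 22 reads in Dex and 0 in both Mock libraries, and at 24 h 281 and 272 reads in Dex and 0 in both Mock libraries. The Dex libraries thus lay above every Mock library at 6 and 24 h, while at 1 h the 6 reads in Dex and 1 in Mock gave a ratio of 5.37 with a 95% exact interval from 0.651 to 246.8, which covers counting error only. The mean level in Dex was 13.2 ± 2.17 CPM at 24 h and 0.269 ± 0.0651 CPM at 6 h (SD, n = 2 each). Taking 3 reads per Mock library as the most that a count of 0 allows, *TFL1* was at least 104-fold higher in Dex at 24 h. At 6 h the bound was at least 5.32-fold. The test at 6 h, which *TFL1* entered only through its Dex libraries, was not passed (edgeR unadjusted *p* = 0.00189, adjusted *p* = 0.199).

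Since a response against libraries without reads has no usable size, the level of *TFL1* was also compared between the Dex time points, a comparison chosen after seeing the data. It was 49.1 times as high in Dex at 24 h as in Dex at 6 h by mean CPM, a log2 difference of 5.60 (SE 0.36, edgeR adjusted *p* = 9.39e-06). The difference between Dex at 6 h and Dex at 1 h, 2.19 on the log2 scale (SE 0.55), had an adjusted *p* of 0.0157 in edgeR and 0.00563 in DESeq2. Most of the *TFL1* reads in the data, 553 of 597, were therefore in the 2 Dex libraries at 24 h.

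*ATC* (chromosome 2, bases 11773187 to 11774746 on the plus strand, 4 exons), whose protein is an antiflorigen that can move through the plant, went the other way from its close relative *TFL1* at 24 h. At 1 h it had 321 and 351 reads in Dex and 309 and 308 in Mock, a log2 fold change of -0.05 (SE 0.16, edgeR adjusted *p* = 0.973). At 6 h it had 110 and 126 reads in Dex and 146 and 155 in Mock, a log2 fold change of -0.56 (SE 0.17, unadjusted *p* = 0.0193, adjusted *p* = 0.338). At 24 h it had 59 and 79 reads in Dex and 194 and 154 in Mock, or 3.24 ± 0.21 CPM in Dex and 7.32 ± 0.369 CPM in Mock (SD, n = 2 each), and the groups did not overlap. *ATC* was lower in Dex at that time, with a log2 fold change of -1.17 (SE 0.22, adjusted *p* = 0.000104).

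*ATC* also differed between the Mock libraries of the 3 time points, and was the only gene of the 8 called both at 6 h against 1 h and at 24 h against 6 h in Mock. Its mean level was 6.40, 1.72 and 3.24 CPM in Dex at 1, 6, and 24 h. Its mean level in Mock was 6.55 ± 0.0967 CPM at 1 h, 2.54 ± 0.136 at 6 h and 7.32 ± 0.369 at 24 h (SD, n = 2 each). Mock at 6 h was lower than Mock at 1 h, with a log2 difference of -1.37 (SE 0.15, edgeR adjusted *p* = 8.10e-05), and in that comparison 14.6% of all genes were called, 5.34% higher and 9.26% lower. Mock at 24 h was higher than Mock at 6 h by 1.53 (SE 0.15, adjusted *p* = 5.34e-05), beside 15.3% of all genes called, 6.79% higher and 8.49% lower, while Mock at 24 h and Mock at 1 h differed by 0.16 (SE 0.15, adjusted *p* = 0.419). Both treatments were thus lowest at 6 h. The time since the solution was applied and the preparation of the libraries, whose batches the labels do not give, cannot be told apart in comparisons between time points.

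*BFT* (chromosome 5, bases 24922802 to 24923797 on the plus strand, 4 exons), an antiflorigen studied mainly under salt stress, had 2 reads in Mock library A at 24 h and 0 in the other 11 libraries. At this depth 0 reads allow a level of up to 0.0430 to 0.157 CPM, depending on the library. Of its exon bases, 50.5% are shared with the antisense gene AT5G62050, and since strand was not used, reads in the shared bases cannot be assigned to either gene.

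The florigen *FT* (chromosome 1, bases 24331373 to 24333999 on the plus strand, 4 exons) was barely detected. It had 10 and 10 reads in Dex and 10 and 9 in Mock at 1 h, 10 and 7 in Dex and 5 and 12 in Mock at 6 h, and 3 and 6 in Dex and 3 and 5 in Mock at 24 h, so the groups overlapped or touched at every time. The ratio of Dex to Mock per library size was 0.941 at 1 h (95% exact interval 0.477 to 1.86), 0.869 at 6 h (0.417 to 1.81) and 1.26 at 24 h (0.4315 to 3.75), for counting error only. A difference within these intervals was not detectable at this depth. *FT* passed the filter only at 6 h, where the log2 fold change was -0.19 (SE 0.58, edgeR adjusted *p* = 0.898).

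*TSF* (chromosome 4, bases 11000771 to 11003010 on the minus strand, 4 exons), the nearest relative of *FT* and likewise a florigen, had 4 and 6 reads in Dex and 5 and 2 in Mock at 1 h, 3 and 9 in Dex and 1 and 5 in Mock at 6 h, and 2 and 3 in Dex and 3 and 5 in Mock at 24 h. It was tested at no time point. The ratio of Dex to Mock was 1.28 at 1 h (95% exact interval 0.439 to 3.96), 1.74 at 6 h (0.604 to 5.65) and 0.70 at 24 h (0.18 to 2.43). The companion cell markers *SUC2* and *APL* were present beside these few reads, with a summed level of 135 to 140 CPM in Dex and 148 to 155 CPM in Mock at 24 h.

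*MFT* (chromosome 1, bases 6227217 to 6230194 on the minus strand, 4 exons), known from seeds, had 858 to 12433 reads per library in these root explants, while of the seed markers *OLEO1* had at most 2 reads and *CRA1* at most 1. At 1 h its levels were 155 and 246 CPM in Dex and 145 and 166 CPM in Mock, a log2 fold change of 0.35 (SE 0.22, edgeR adjusted *p* = 0.953), and Dex library B at 1 h lay above all others. Without Dex library A at 1 h the log2 fold change was 0.64 and passed the test, at an adjusted *p* of 2.24e-05 and with 9.76% of all genes called, and without Dex library B it was -0.013. At 6 h the levels were 103 and 102 CPM in Dex and 102 and 132 CPM in Mock, a log2 fold change of -0.19 (SE 0.12, adjusted *p* = 0.549). At 24 h it had 858 and 948 reads in Dex and 2569 and 2009 in Mock, or 42.9 ± 3.05 CPM in Dex and 96.2 ± 5.87 CPM in Mock (SD, n = 2 each), without overlap. *MFT* thus fell in Dex at 24 h, with a log2 fold change of -1.16 (SE 0.07, adjusted *p* = 4.69e-15), the smallest SE of the 4 genes with reads in Mock.

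In Mock, the log2 difference of *MFT* at 24 h against 1 h was -0.69 (SE 0.19, edgeR adjusted *p* = 0.0141), which missed the threshold in edgeR and passed it in DESeq2 (adjusted *p* = 0.00122). In Dex, *MFT* was lower at 6 h than at 1 h, with a log2 difference of -0.97 (SE 0.19, adjusted *p* = 0.00266), and lower at 24 h than at 6 h, with a log2 difference of -1.26 (SE 0.19, adjusted *p* = 0.000763), in the comparisons chosen after seeing the data. At 6 h against 1 h the log2 difference was -1.26 without Dex library A at 1 h and -0.58 without Dex library B at 1 h. Of the exon bases of *MFT*, 42.1% are shared with the antisense gene AT1G18090, which had 184 to 256 reads per library at 24 h and a log2 fold change of -0.04 (SE 0.16, adjusted *p* = 0.904).

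*FD* (chromosome 4, bases 17004382 to 17006462 on the plus strand, 2 exons), the DNA binding partner of FT and TFL1 at the shoot apex, was expressed in all libraries, with 264 to 787 reads. At 1 h it had 547 and 581 reads in Dex and 420 and 483 in Mock, a log2 fold change of 0.15 (SE 0.15, edgeR adjusted *p* = 0.953). At 6 h it had 787 and 766 reads in Dex and 551 and 689 in Mock, a log2 fold change of 0.13 (SE 0.10, adjusted *p* = 0.595). At 24 h it had 367 and 392 reads in Dex and 327 and 264 in Mock, or 18.0 ± 1.71 CPM in Dex and 12.4 ± 0.479 CPM in Mock (SD, n = 2 each). *FD* was higher in Dex at 24 h, with a log2 fold change of 0.54 (SE 0.13, adjusted *p* = 0.00196), and the groups did not overlap in CPM. The call at 24 h was lost in DESeq2 (adjusted *p* = 0.0244), in the fit of all 12 libraries (0.0152), without Mock library B (0.0168) and without Dex library A (0.0322). The log2 fold change lay between 0.44 and 0.63 under all 13 alternatives.

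*FDP* (chromosome 2, bases 7722825 to 7724323 on the plus strand, 2 exons), which encodes a bZIP protein close to FD, had a log2 fold change at 24 h further from 0 than that of *FD*. At 1 h it had 69 and 31 reads in Dex and 71 and 51 in Mock, a log2 fold change of -0.48 (SE 0.43, edgeR adjusted *p* = 0.953). At 6 h it had 222 and 216 reads in Dex and 114 and 110 in Mock, without overlap and with a log2 fold change of 0.76 (SE 0.17, unadjusted *p* = 0.00525, adjusted *p* = 0.244). At 24 h it had 168 and 197 reads in Dex and 67 and 62 in Mock, or 8.64 ± 0.251 CPM in Dex and 2.73 ± 0.158 CPM in Mock (SD, n = 2 each), without overlap. The log2 fold change was 1.67 (SE 0.22, adjusted *p* = 2.22e-07), a 3.17-fold higher level in Dex. In Dex it was higher at 6 h than at 1 h by 1.76 (SE 0.29, adjusted *p* = 0.000928) and higher at 24 h than at 6 h by 1.43 (SE 0.26, adjusted *p* = 0.00225). At 6 h against 1 h the log2 difference was 2.38 without Dex library A at 1 h and 1.36 without Dex library B at 1 h, and with only these 4 libraries in the fit the call was lost (adjusted *p* = 0.0285). At 24 h against 6 h the call was lost with any of the 4 Dex libraries left out (log2 difference 1.38 to 1.48, adjusted *p* between 0.0149 and 0.0302). In Mock at 24 h it was higher than in Mock at 1 h by 1.07 (SE 0.30), which missed the threshold in edgeR (adjusted *p* = 0.0161) and passed it in DESeq2 (adjusted *p* = 0.00258).

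**Figure D3:**
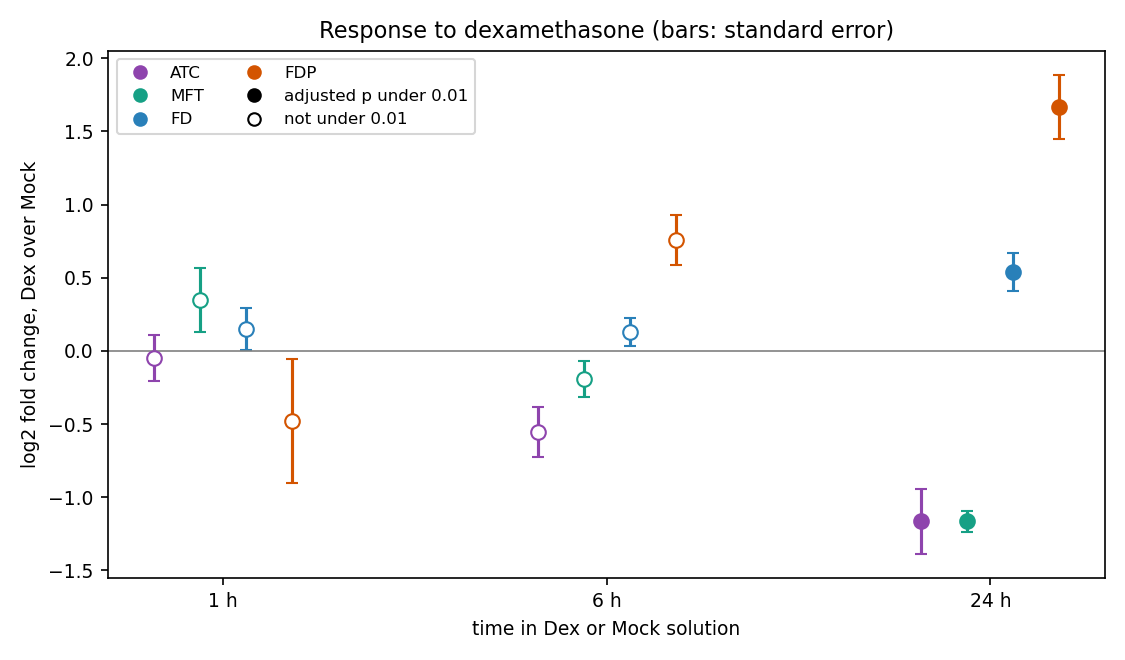
Log2 fold change of Dex over Mock for the 4 genes tested at all 3 times (points), with standard errors (bars). Filled points have an adjusted *p* under 0.01, which is the case for all 4 genes at 24 h and for none at 1 or 6 h, and *ATC* and *MFT* lie at -1.17 and -1.16 at 24 h.

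At 6 h, the counts of calls depended on single libraries. *TFL1* passed the filter at this time only through its Dex libraries, so a call of it is no support. Without Mock library A, *TFL1*, *FDP* and *MFT* were called and so were 38.9% of all genes, and without Mock library B, *TFL1*, *FDP* and *ATC* were called and so were 13.9% of all genes. In both fits the lone Mock library was assumed to vary like the Dex libraries, and without either Dex library 0 of the 8 genes were called.

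Whether the response itself differed between times was tested by an interaction over all 12 libraries. From 6 to 24 h, 0 of the 6 genes tested were called by edgeR, beside 4.43% of all genes, and 4 had an unadjusted *p* under 0.05. The responses differed by -0.98 for *MFT* (SE 0.27, adjusted *p* = 0.0462), 0.90 for *FDP* (SE 0.39, adjusted *p* = 0.198), -0.61 for *ATC* (SE 0.22, adjusted *p* = 0.126) and 0.41 for *FD* (SE 0.17, adjusted *p* = 0.188) on the log2 scale. DESeq2 called 1 of them, *MFT* (adjusted *p* = 0.00459), beside 7.90% of all genes. From 1 to 6 h, 0 of the 6 were called by either tool, beside 0.0612% of all genes in edgeR and 0.201% in DESeq2, and 2 had an unadjusted *p* under 0.05 in edgeR. For *TFL1* the interaction gave no usable estimate, because the Mock libraries at 6 and 24 h held 0 reads.

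Between the Dex libraries, 3 of the 8 genes were called at 6 h against 1 h, 1 higher (*FDP*) and 2 lower (*ATC* and *MFT*), beside 19.2% of all genes, 7.08% higher and 12.1% lower. At 24 h against 6 h in Dex 5 were called, 4 higher (*TFL1*, *ATC*, *FD* and *FDP*) and 1 lower (*MFT*), beside 17.7% of all genes, 7.33% higher and 10.4% lower. With single Dex libraries left out the calls of these 2 comparisons changed, while the called genes kept their direction. At 6 h against 1 h the log2 difference lay between 1.36 and 2.38 for *FDP* and between -2.01 and -1.75 for *ATC*. For *MFT* it lay between -1.26 and -0.58. At 24 h against 6 h it lay between 5.37 and 5.86 for *TFL1* and between 1.38 and 1.48 for *FDP*. There, *ATC* lay between 0.84 and 0.98, *FD* between 0.57 and 0.76, and *MFT* between -1.33 and -1.19. Such fits leave a lone library in a group, so their calls are not counted here. Between the Mock libraries at 24 h and at 1 h, 0 of the 6 genes tested were called by edgeR, beside 24.5% of all genes, and 3 (*MFT*, *FD* and *FDP*) had an unadjusted *p* under 0.05. DESeq2 called 2 of them, *MFT* and *FDP*, beside 29.2% of all genes. These comparisons share their libraries with those of Dex against Mock.

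The changes altered the makeup of the family. Of the summed CPM per kb of the 6 PEBP genes, *MFT* made up 60.6% and 62.1% in the Dex libraries at 24 h and 89.7% and 89.4% in Mock, and *TFL1* made up 32.8% and 29.5% in Dex and 0% in Mock. In the 8 libraries at 1 and 6 h, *MFT* made up between 93.5% and 97.1%. Of the sum of *TFL1* and *ATC* per kb, *TFL1* made up at most 1.29% in the Dex and 0.369% in the Mock libraries at 1 h, 13.5% and 16.6% in Dex and 0% in Mock at 6 h, and 84.5% and 79.7% in Dex and 0% in Mock at 24 h. Of the sum of *FD* and *FDP* per kb, *FDP* made up 14.9% and 6.90% in Dex and 19.0% and 12.8% in Mock at 1 h, 28.1% in both Dex libraries and 22.3% and 18.1% in Mock at 6 h, and 38.9% and 41.1% in Dex and 22.1% and 24.6% in Mock at 24 h. These shares follow from the levels above and were not tested on their own, and since *MFT* may be understated per kb, its share may be too low and those of the other PEBP genes too high in every library.

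**Figure D4:**
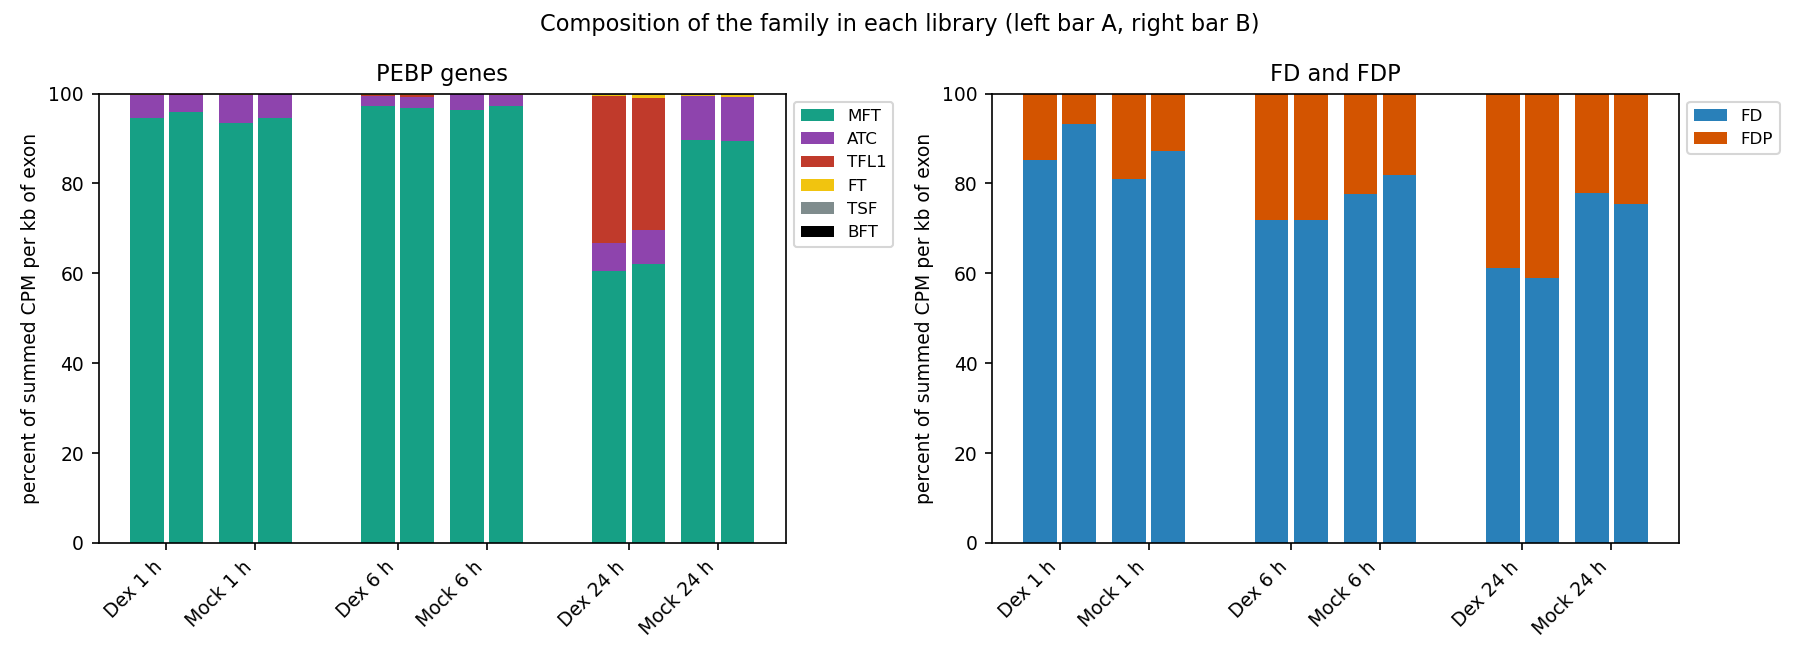
Share of each gene in the summed CPM per kb of exon of the 6 PEBP genes (left) and of *FD* and *FDP* (right), with a bar for each library (A left, B right). *MFT* makes up 60.6% and 62.1% of the PEBP sum in Dex at 24 h and 89.7% and 89.4% in Mock, and *TFL1* makes up 32.8% and 29.5% in Dex at that time.

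Genes known to work with the family were grouped by role. The 14-3-3 proteins bridge FT or TFL1 and FD, and of 13 genes 11 were tested at 24 h. None of the 11 was called by edgeR or DESeq2, 3 had an unadjusted *p* under 0.05 in edgeR, beside 15.5% of all genes called by edgeR and 10.1% by DESeq2. The median log2 fold change of the 11 was -0.03, beside 0.01 over all genes. Of 11 relatives of *FD* in bZIP group A, 9 were tested, with 2 higher and 1 lower, beside 6.77% and 8.76% of all genes, and a median of 0.05. *ABI5*, a regulator of abscisic acid responses in seeds, had 206 and 331 reads in Dex and 160 and 144 in Mock and was higher by 0.97 (SE 0.17, edgeR adjusted *p* = 3.05e-05). *ABF1*, which acts in abscisic acid signalling, was higher by 0.63 (SE 0.09), and *EEL*, a seed bZIP factor, was lower, with a log2 fold change of -0.39 (SE 0.08).

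Of the genes on which *FT* and FD complexes are known to act, 3 of 9 had enough reads at 24 h, and 2 of them were higher and 0 lower, beside 6.77% and 8.76% of all genes. *AP1*, the floral meristem identity gene, had 286 and 229 reads in Dex and 4 and 1 in Mock, a log2 fold change of 6.81 (SE 0.39, edgeR adjusted *p* = 2.73e-16). Like *TFL1*, it passed the filter only through its Dex libraries, so its call is no support. *LFY*, whose reads include the transgene, had 17459 and 18635 reads in Dex and 15261 and 11795 in Mock, a log2 fold change of 0.60 (SE 0.06, adjusted *p* = 2.78e-10). *SOC1*, a target of FT in the shoot apex, had 64 and 65 reads in Dex and 120 and 82 in Mock and was not called (log2 fold change -0.46, SE 0.26, adjusted *p* = 0.235). The median of the 3 was 0.60, which is the value of *LFY*, beside 0.01 over all genes.

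Of 21 regulators of *FT* transcription, 17 were tested at 24 h, 7 were higher and 0 were lower, beside 6.77% and 8.76% of all genes, while the median of the 17 was -0.08. DESeq2 called 6 of them higher and 0 lower. The largest difference was that of *SMZ*, an AP2-type repressor of *FT*, with 34 and 44 reads in Dex and 7 and 9 in Mock and a log2 fold change of 2.42 (SE 0.54, edgeR adjusted *p* = 0.000859). With so few Mock reads *SMZ*, which is 1 of the 7, passed the filter only through its Dex libraries, so its call is no support. *TEM1* and *TEM2*, which also repress *FT*, were higher by 1.20 (SE 0.12) and 0.62 (SE 0.09), and *FKF1*, a light receptor that promotes *FT* through CONSTANS, by 1.07 (SE 0.15). The genes called higher thus include some that repress *FT* and some that promote it. *FTIP1*, which helps FT protein leave companion cells, had 171 and 227 reads in Dex and 404 and 344 in Mock and was lower, with a log2 fold change of -0.75 (SE 0.14, adjusted *p* = 9.46e-05). *NAKR1*, which takes part in the transport of FT through the phloem, had 249 and 337 reads in Dex and 509 and 325 in Mock and was not called (log2 fold change -0.33, SE 0.14, adjusted *p* = 0.0776).

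Of 5 genes linked to *MFT* in seeds, 4 were tested, with 1 higher (*ABI5*) and 1 lower, beside 6.77% and 8.76% of all genes, and a median of -0.13. *PIF1*, a bHLH factor that represses germination in the dark, had 46 and 42 reads in Dex and 178 and 130 in Mock, a log2 fold change of -1.62 (SE 0.26, edgeR adjusted *p* = 6.15e-06). These lists, like the 8 genes, were put together with earlier results of the data known, and their counts are descriptions.

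**Figure D5:**
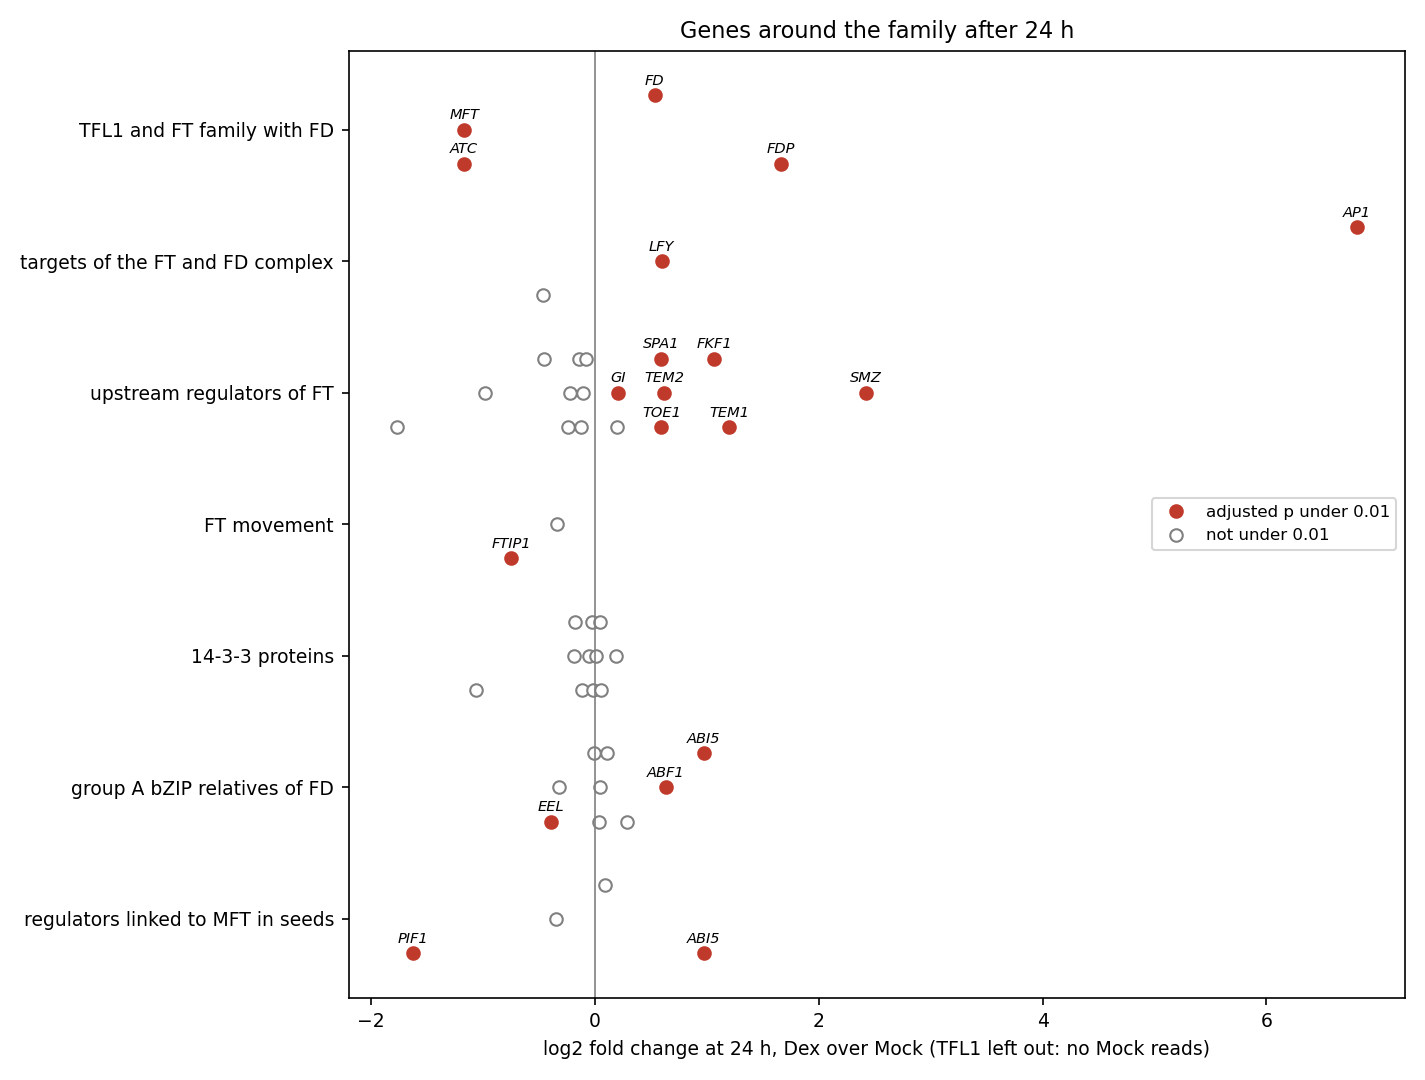
Log2 fold change of Dex over Mock at 24 h (horizontal axis) for each tested gene of the family and of 6 lists around it (rows, with points spread vertically for legibility). Filled points have an adjusted *p* under 0.01. *TFL1* is left out since Mock held 0 reads, *AP1* lies at 6.81, and the 7 filled points among the regulators of *FT* lie above 0.

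Some markers of cell types also differed between Dex and Mock at 24 h. The 8 markers of callus and root stem cells summed to 684 to 718 CPM in Dex and 931 to 954 CPM in Mock. Of these 8, 5 were called lower, 1 higher and 2 not called, beside 8.76% of all genes lower and 6.77% higher. The 3 markers of the shoot meristem summed to 0.601 to 1.68 CPM in Dex and 0 to 0.0781 CPM in Mock. Of these, *STM* had 32 and 11 reads in Dex and 0 in both Mock libraries, and *CLV3* had 0 in all. The 3 flower organ markers summed to 20.6 to 21.6 CPM in Dex and 13.3 to 13.9 CPM in Mock, nearly all from *PI*, while *AP3* had at most 6 reads and *AG* at most 17 in any library. The 4 green leaf markers summed to 23.8 to 25.9 CPM in Dex and 21.1 to 25.2 CPM in Mock, which overlap. Of the 2 tested, 1 was called higher and 1 lower by edgeR, and of the 2 phloem markers 0 were called. The part of these differences in cell type markers, and of the difference in *LFY* reads, in the results for the 8 genes was not tested. In such bulk tissue, fewer cells of a type and less RNA per cell cannot be told apart.

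The genes closest in profile to each of the 5 called genes were found over all 12 libraries, as the smallest root mean square (RMS) difference of centred log2 CPM among 21240 other genes. Nearest to *TFL1* were *AP1* at 1.03, the small peptide gene *RTFL21* at 1.04 and AT2G22590 at 1.13, beside a median RMS difference of 2.93 over all genes. *TFL1* and *AP1* had few or no reads in Mock at 24 h and passed the filter there only through their Dex libraries. Their closeness in profile is therefore no support for a shared response. Nearest to *FDP* were *PUM9* at 0.40, AT1G67270 at 0.40 and AT5G42760 at 0.41, beside a median of 1.09. Nearest to *ATC* were AT5G56960 at 0.16, the cytochrome P450 gene *CYP78A8* at 0.33 and the nitrate transporter gene *NRT2:1* at 0.33, beside a median of 0.84. Nearest to *MFT* were AT3G48460 at 0.12, the amino acid transporter gene *SIAR1* at 0.15 and the mitochondrial ATMG00670 at 0.15, beside a median of 0.76. Nearest to *FD* were AT1G67340 at 0.10, the catalase gene *CAT2* at 0.11 and AT1G19140 at 0.12, beside a median of 0.40. None of the 8 genes was among the 3 nearest of another. The SD of the gene's own centred profile was 3.05 for *TFL1*, 1.11 for *FDP*, 0.82 for *ATC*, 0.74 for *MFT* and 0.32 for *FD*. The medians thus largely follow the spread of each gene itself. The 3 nearest of so many genes lie under such a median by construction, and shared regulation was not tested.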

How the data were processed

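Counts of reads per gene were deposited for each of the 12 libraries without normalization. The authors mapped trimmed single-end reads with STAR (genome TAIR10, annotation Araport11) and counted them with HTSeq, ignoring strand. The submitters' processing notes name Trimmomatic 0.36, FastQC 0.11.5, STAR 2.5.3a and HTSeq 0.7.2. HTSeq's tallies of reads given to no gene (10.4% to 27.0% of tallied reads) were left out, and reads in overlapping genes or at several places were not counted.

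Groups came from the sample titles. Replicates differed by more than sampling noise. Low counts were removed with filterByExpr, libraries were TMM normalized, and the 4 libraries of a time point were fitted for Dex against Mock with the quasi-likelihood test of edgeR 4.0.16 (limma 3.58.1) in R 4.3.3. Other contrasts used all 12 libraries. Genes with an adjusted *p* under 0.01 were called, and SE were derived from the test statistic. The script was tested on simulated data. Counting intervals used scipy. Of the 37336 genes, 37051 have an entry in the TAIR10.1 annotation, which gave positions and exon lengths. Reference tables of proteins were not used here.

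The members and lists were chosen with earlier results of these data known. Named are all 8 members, of each list up to 4 genes with the largest change among those called at 24 h, *AP1* and *LFY* always, and the 3 genes nearest in profile. Contrasts between Dex time points were added after seeing the data. *SOC1*, *NAKR1* and single markers were named in addition, after their values were seen. Alternatives were DESeq2 1.42.0 (shrunken or not), RLE size factors, no filter, at least 10 counts in each library, the replicate letter as a block, all 12 or only the compared libraries, calls at 0.05, calls only where log2 fold changes were 1 or more in size, counts drawn down to the smallest library, and leaving out each library.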

Additional observations from a re-analysis of the deposited data

How the results depend on the processing

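At 24 h, *ATC*, *MFT* and *FDP* kept their direction and call against Mock under every alternative run, and *FD* lost its call in 6 of 13. *TFL1* was not tested with at least 10 counts in each library. Its call in the other alternatives had to occur and is no support. The count at 24 h was therefore 4 instead of 5 in DESeq2, shrunken or not, beside 10.1% of all genes called. It was also 4 with at least 10 counts in each library, beside 16% of all genes. The count was again 4 with all 12 libraries in the fit (7.28% of all genes) and with a log2 fold change of at least 1 (4.17%). Other counts of the 8 genes that differed from the main count were these, each with the share of all genes called in brackets. For the interaction from 6 to 24 h it was 1 (*MFT*) instead of 0 in DESeq2 (7.90%) and with no filter (5.81%). It was also 1 (*MFT*) with only the libraries compared (5.94%) and at an adjusted *p* under 0.05 (9.27%). For Mock at 24 h against Mock at 1 h it was 2 (*MFT* and *FDP*) instead of 0 in DESeq2 (29.2%) and with no filter (22.1%). The same 2 genes were called when replicates were blocked by letter (25.7%), counts were drawn down (24%) or only the libraries compared were fitted (32.2%). The count was 1 with at least 10 counts in each library (27.9%) and 3 at an adjusted *p* under 0.05 (38.1%). For Mock at 6 h against Mock at 1 h it was 2 instead of 1 with no filter (14.5%). For Dex at 6 h against Dex at 1 h it was 1 instead of 3 with only the libraries compared (5.23%) and 2 with a log2 fold change of at least 1 (5.72%). It was 4, with *TFL1*, in DESeq2 (25.8%), with no filter (19.2%) and at an adjusted *p* under 0.05 (32.1%). For Dex at 24 h against Dex at 6 h it was 3 instead of 5 with a log2 fold change of at least 1 (6.24%). It was 4 with at least 10 counts in each library (20.4%) and with counts drawn down (17.1%). With a library left out, the counts also changed at 1, 6, and 24 h and in both comparisons between Dex time points. A lone library was then assumed to vary like the others. The cause of these differences was not tested. With counts drawn down, log2 fold changes far from any call turned round for *ATC* (0.12) and *FD* (-0.0088) at 1 h and for *FD* (0.12) from 1 to 6 h. With a library left out they ranged across 0 for *ATC* (-0.17 to 0.062) and *MFT* (-0.013 to 0.64) at 1 h, for *FT* at 6 h (-0.59 to 0.44), for the interactions of *FT* (-0.14 to 1.02 from 6 to 24 h and -0.50 to 0.53 from 1 to 6 h) and *FD* (-0.14 to 0.066 from 1 to 6 h), for *FT* in Mock at 24 h against Mock at 1 h (-0.77 to 0.18) and Mock at 6 h (-0.27 to 0.89), and for *FD* in Dex at 6 h against Dex at 1 h (-0.020 to 0.20). With the replicate letter as a block, 5 of the 8 genes, *TFL1* included, were again called at 24 h, beside 17.9% of all genes. At 1 and 6 h 0 were called with the block, beside 2.02% and 0.403% of all genes. Libraries of the same letter deviated together at 1 h (correlation 0.567) but not at 6 h (-0.0384) or 24 h (0.0526). The main test left the letter out at all times, also at 1 h, where more genes were called with the block. With the block, *MFT* at 1 h had a log2 fold change of 0.31 (SE 0.11, edgeR adjusted *p* = 0.112). Depth limits *FT*, *TSF* and *BFT*, with at most 12 reads in a library, and *TFL1* at 1 h.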
